A study of Mus musculus with 17 samples.

Results

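*AC167192.3* and *2410141K09Rik* are 2 rows of the deposited table of read counts, which lie near each other in the zinc finger cluster of mouse chromosome 13. The table lists 2615 genes, and the pair was chosen by its own readout, as rows that were well expressed in control oocytes and close to zero in oocytes without *Ehmt2*. The difference between the groups is therefore given as a description, without a test, for both genes. The 14 other listed rows within 1 Mb of the pair are given as context.

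The libraries were made from polyadenylated RNA of oocytes labelled MII, the stage at which an ovulated egg waits for fertilization. The paper reports that few oocytes without *Ehmt2* completed the first meiosis, so the label may not give their stage. Genotype and meiotic stage cannot be told apart in these libraries. The mice were C57BL/6J females 8 weeks old. The 3 control libraries (replicates 1, 2 and 6) came from Ehmt2(flox/flox) females, and the 3 *Ehmt2* GKO libraries (replicates 3, 4 and 5) from Ehmt2(flox/flox); Gdf9-Cre females, so that all 6 carry the floxed alleles and the control females carry no Cre. The *Gdf9* promoter drives Cre in oocytes from the primordial follicle stage on, and Cre removes exons 4 to 20 of *Ehmt2*. The sources used here do not say how many oocytes or females went into a library, so the spread between libraries may be technical. *Ehmt2* is not among the listed rows, and its own reads were not analysed here.

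The 2 genes belong to the KRAB zinc finger family. Proteins of this family bind DNA through tandem C2H2 zinc fingers and carry a KRAB domain, which recruits the corepressor TRIM28 and, with it, the H3K9 methyltransferase SETDB1. Many of them bind transposable elements, and their genes sit in clusters that grew by tandem duplication. EHMT2, also called G9a, is another H3K9 methyltransferase and places the dimethyl mark in euchromatin, where the mark is associated with repression.

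*AC167192.3* (ENSMUSG00000114550) lies at chr13:66281136-66284067 on the minus strand of GRCm38. GENCODE vM21 names the gene *Gm46426*, classes it as a processed pseudogene and gives it 1 transcript of 3 exons with 1567 bases. *2410141K09Rik* (ENSMUSG00000074832) lies at chr13:66418114-66441118, also on the minus strand. It is annotated as protein coding, with 4 transcripts and 3325 exon bases. The deposited domain column names KRAB for both. The gap between them is 134 kb.

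The first sequences shown are the exons that carry the KRAB domain, because they show how closely the pair is related. The first exon of *AC167192.3* (aligned part chr13:66283935-66284059) and the second exon of *2410141K09Rik* (chr13:66433681-66433805) matched at 122 of 125 bases, or 97.6%. Bases that differ are in capitals, and the sequences are those of the GRCm38.p6 genome of RefSeq on the minus strand.
*AC167192.3*: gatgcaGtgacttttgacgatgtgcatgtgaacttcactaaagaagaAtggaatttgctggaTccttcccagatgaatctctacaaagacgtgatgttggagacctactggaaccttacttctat
*2410141K09Rik*: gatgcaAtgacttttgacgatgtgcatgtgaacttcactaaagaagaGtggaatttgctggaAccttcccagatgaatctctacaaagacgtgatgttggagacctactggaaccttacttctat
The next exon was identical between the genes over 60 aligned bases (chr13:66283673-66283732 and chr13:66433419-66433478).
Both genes: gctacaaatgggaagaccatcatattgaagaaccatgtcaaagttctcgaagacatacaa
The last exons, which hold the zinc fingers, were less alike, with 88.0% identity over 1363 aligned positions, of which 20 were gaps. The spliced transcript of *AC167192.3* held 12 matches to the C2H2 finger pattern in a single reading frame and that of *2410141K09Rik* held 14, with 0 stop codons between the first and the last finger of either. Over the forward frames, the longest stop-free stretch of *AC167192.3* had 367 codons and held 0 fingers. That of *2410141K09Rik* had 467 codons and held all 14.

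The promoter of *2410141K09Rik* is shown next, because a nearly identical copy of it lies upstream of *AC167192.3*. Whether transcription of *AC167192.3* begins at the copy was not tested. The RefSeq promoter of *2410141K09Rik* (250 bases before its start to 50 after it) had its best match in the rest of the genome at chr13:66291325-66291624, upstream of *AC167192.3*. The match was 98.7% over 300 bases, and all 4 substitutions fell in the 250 bases before the start. These 250 bases are given with the differing bases in capitals, for the promoter (chr13:66441119-66441368) and for its copy (chr13:66291375-66291624), both on the minus strand of GRCm38.p6.
Promoter of *2410141K09Rik*: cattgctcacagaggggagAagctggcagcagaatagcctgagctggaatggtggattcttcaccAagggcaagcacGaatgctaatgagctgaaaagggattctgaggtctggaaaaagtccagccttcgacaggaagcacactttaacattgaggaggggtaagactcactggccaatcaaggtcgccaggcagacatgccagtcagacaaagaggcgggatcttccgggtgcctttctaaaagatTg
Copy upstream of *AC167192.3*: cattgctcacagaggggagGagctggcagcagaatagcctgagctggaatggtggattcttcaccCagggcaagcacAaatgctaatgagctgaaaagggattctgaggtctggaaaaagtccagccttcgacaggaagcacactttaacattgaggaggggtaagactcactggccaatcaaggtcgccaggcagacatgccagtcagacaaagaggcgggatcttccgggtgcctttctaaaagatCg
Counted from 1 at the 5′ end of the window, with the base of *2410141K09Rik* first, the substitutions were A20G, A66C, G78A and T249C. Both windows held 1 CCAAT match over both strands, which 37.4% of all promoters of this length in the RefSeq table also hold, and 0 TATAAA matches, which 13.6% hold. Both held 5 CG dinucleotides, against a median of 7 over all promoters.

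From its upstream end, the copy lay 7.56 kb before the annotated start of *AC167192.3*. The position in the copy that matches the start of *2410141K09Rik* was 7.31 kb from the first annotated exon of *AC167192.3*. The start of *2410141K09Rik* was likewise 7.31 kb from its own first KRAB exon. GENCODE vM21 annotates no exon of *AC167192.3* at the copy, whereas the first exon of *2410141K09Rik* begins at its promoter. The likeness ran beyond these windows. One alignment of 17370 bases with 96.9% identity joined chr13:66281436-66298768 to chr13:66431161-66448506, and a second of 9198 bases with 98.2% identity followed upstream.

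**Figure D1:**
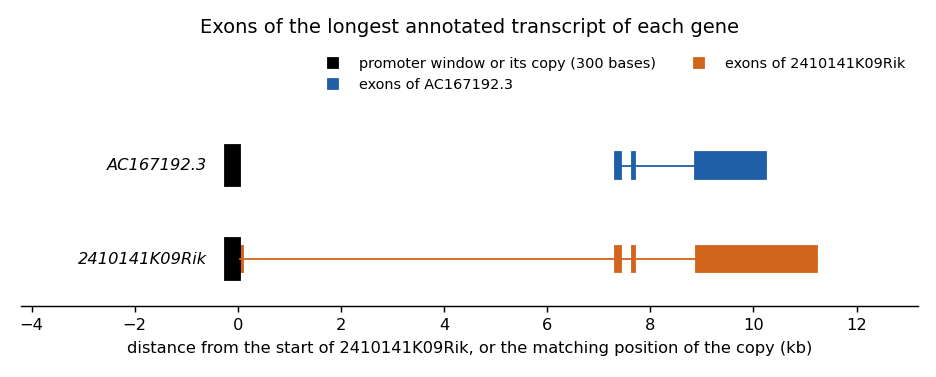
Exons of the longest annotated transcript of each gene, drawn to scale by distance in kb from the start of *2410141K09Rik* or from the matching position of the promoter copy. The KRAB exons of both genes sit 7.31 kb from that position, and the black boxes are the 300-base promoter window and its copy.

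In the control libraries *AC167192.3* had 1232, 1012 and 1042 reads (replicates 1, 2 and 6). In the *Ehmt2* GKO libraries it had 5, 4 and 3 reads (replicates 3, 4 and 5). The 3 GKO libraries were all close to zero and the groups did not overlap. After division by size factors the mean was 1065 ± 126 normalized read counts (SD, n = 3) in control and 4.10 ± 0.887 (SD, n = 3) in GKO oocytes, so that 0.385% of the control level was left. The fitted log2 fold change was -8.06 (SE 0.23). Summed over libraries and scaled by the size factors, the control reads were 258 times the GKO reads, with an exact 95% counting interval from 148 to 500.4, which covers counting error only.

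*2410141K09Rik* had 495, 395 and 484 reads in the control libraries. It had 3, 4 and 4 reads in the GKO libraries. Again every GKO library was near zero and no library of one group reached the range of the other. The mean was 445 ± 55.6 normalized read counts (SD, n = 3) in control and 3.80 ± 0.741 (SD, n = 3) in GKO oocytes, or 0.853% of control. The log2 fold change was -6.92 (SE 0.27). The summed control reads, scaled in the same way, were 118 times the GKO reads (exact 95% counting interval 65.6 to 237).

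As background to both, 16.9% of the 2516 rows tested across the table were called lower in GKO oocytes (edgeR, fold change above 2 and adjusted P below 0.01), 18.7% were called higher, and in 46.0% of all listed rows the 3 GKO libraries all lay below the 3 controls. Nothing is read from this for the pair, since the pair was picked on the same contrast.

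**Figure D2:**
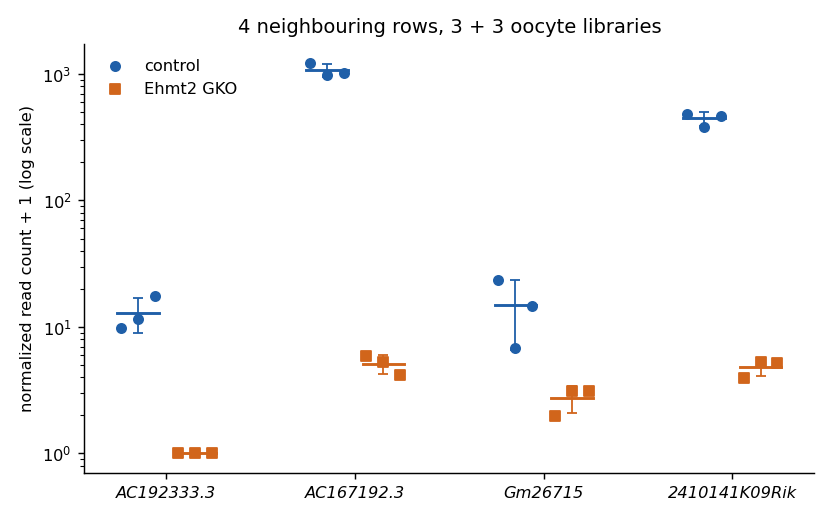
Normalized read count plus 1 on a log scale in each library, for the pair and the 2 noncoding rows listed between and around them, with mean and SD (n = 3 per group). The GKO libraries of the pair lie at 2.94 to 4.90 normalized counts before the 1 is added, and those of *AC192333.3* at 0.

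Per kilobase of annotated exon the control level was 679.6 normalized counts for *AC167192.3* and 134 for *2410141K09Rik*. The first is higher than that of 86.0% of the tested rows and the second higher than that of 56.4%. The annotated pseudogene of the pair thus had more reads per kilobase of annotated exon in control oocytes. For *2410141K09Rik* the exons of all 4 annotated transcripts were counted together. Which of them was expressed was not tested, so the abundance of the transcripts cannot be ranked. The number of *AC167192.3* reads per *2410141K09Rik* read was 2.49, 2.56 and 2.15 in the control libraries. In the GKO libraries it was 1.67, 1.00 and 0.750, each resting on 3 to 5 reads per gene.

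Sequence shared between family members limits how surely reads can be assigned. Of the exon bases of *AC167192.3*, 308 (19.7%) lie in exact matches of 100 bases or more elsewhere in the genome. One match covers the 133 bases of the first exon of *AC167192.3*, and 123 of its bases lie within *Gm10769*, listed as *AC164297.1*. The other match of 175 bases, at chr13:66669588-66669762, lies outside annotated genes. It is close to the annotated 3′ end of *Zfp640* (chr13:66669928-66698243, minus strand), a listed row. Whether *Zfp640* transcripts reach it was not tested. *2410141K09Rik* had 0 such bases. No other annotated transcript was 95% or more identical to either gene over at least 50% of its length. The highest identities were 91.3% for each of them. How reads with several matches were counted is not given in the sources used here, and RNA was amplified with a kit that does not mark strand.

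Among the 1777 listed rows with more than 100 normalized counts in every control library, *AC167192.3* and *2410141K09Rik* kept the smallest shares of their control level. The pair was chosen for such values, so this rank is a description only. In order of GKO level and not of share, the next was *Slc16a12*, a monocarboxylate transporter family member, which went from 194 ± 32.0 to 16.8 ± 1.61 normalized counts (8.64% of control). *Gm13398* with 21.2 ± 7.34 and *Zfp992*, another KRAB zinc finger gene, with 32.4 ± 8.85 normalized counts in GKO oocytes followed. These 3 rows kept 8.64%, 17.6% and 21.1% of control, against the 0.385% and 0.853% for which the pair was picked.

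**Figure D3:**
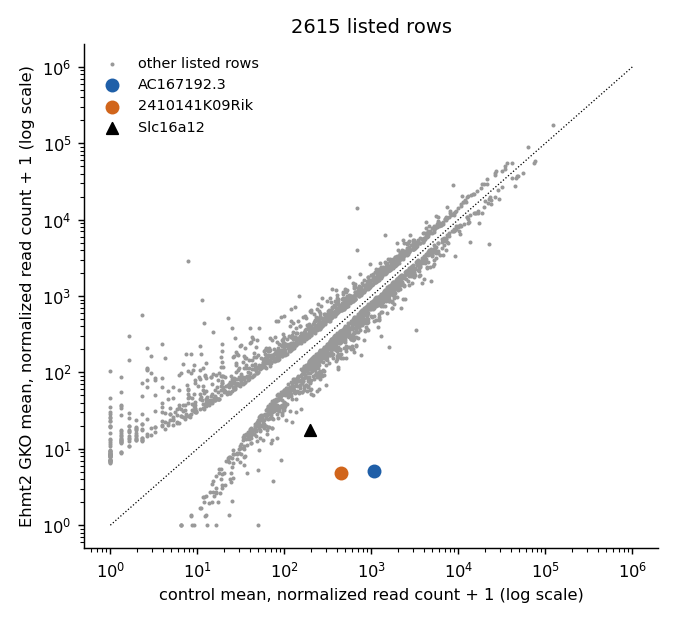
Mean normalized read count plus 1 in control (x axis) and *Ehmt2* GKO oocytes (y axis) for the 2615 listed rows, both axes on a log scale, with the dotted line marking equal levels. The empty band along the line is where rows were not listed, and the pair sits apart below the other rows of its control level, with *Slc16a12* nearest.

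The rows most like the pair over the 6 libraries were ranked by Euclidean distance, computed on log2(normalized count + 1) after subtraction of the control mean, over 1837 rows. The distance between the members was 2.14. The 5 nearest other rows were the same for both genes, in the order *Slc16a12*, *Tex15*, *Cwc22*, *Gm13398* and *Neil3*. The distances ran from 7.41 to 9.50 for *AC167192.3* and from 5.40 to 7.44 for *2410141K09Rik*. Since the pair was chosen on the same counts, the closeness of its members to each other was set by that choice.

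Besides the pair, 2 long noncoding RNA rows were listed in the same stretch. *AC192333.3* (*Gm26754*, chr13:66244270-66451277, plus strand) runs across both genes on the other strand, and its 4 exons share 0 exon bases with either. It had 9, 11 and 17 reads in the control libraries and 0, 0 and 0 in the GKO libraries. Against a floor of 3 reads per library it was at least 3.87-fold lower. *Gm26715* (chr13:66349396-66365772, plus strand) lies between the genes and had 23, 6 and 14 reads in control and 1, 2 and 2 in GKO oocytes. Its summed control reads, scaled by the size factors, were 8.11 times the GKO reads (exact 95% counting interval 3.22 to 26.2). Both rows were below the low-count filter and were not part of the main test. Fitted without the filter, *Gm26715* had a log2 fold change of -3.03 (SE 0.75, edgeR adjusted P = 0.00124).

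All 4 listed rows of this stretch of 207 kb were therefore low in every GKO library, out of 14 genes that GENCODE vM21 places there. The 10 other genes of the stretch are not listed and were not analysed here. Only rows with the authors' adjusted P below 0.05 are listed, so the 2 noncoding rows are there because they differed between groups. A shared fall of the stretch was not tested. When all listed rows were put in chromosomal order, 58 had a GKO mean under 20% of control, and they formed 4 runs of 2 or more neighbours. The run at the pair had 4 rows, of which 2 are the pair itself, and the other 3 runs had 2 rows each. The 20% limit was set after the values were seen and the pair was picked for low GKO values, so this is a description only.

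The next listed rows on either side did not have this pattern. *Gm10324*, 121 kb to the left, is a KRAB gene that had 286, 248 and 386 reads in control and 512, 565 and 451 in GKO oocytes. Its log2 fold change of 0.73 (SE 0.16) was not past the fold threshold. *AC164297.1* (*Gm10769*), 122 kb to the right, had 21, 14 and 19 reads in control and 84, 106 and 68 in GKO oocytes. It rose by a log2 fold change of 2.24 (SE 0.33, edgeR adjusted P = 1.85e-05), in the opposite direction to the pair. This row also holds 123 of the 133 bases that exactly match the first exon of *AC167192.3*.

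Within 1 Mb, 10 of the 14 other listed rows were tested, of which 4 were called lower (16.9% over the table) and 2 higher (18.7% over the table). These shares rest on 10 rows, and their difference from the table was not tested. Over the tested rows nearby the median log2 fold change was -0.06, against -0.32 over all tested rows. The GKO libraries lay below all controls in 7 of the 14 rows and above them in 7, where 46.0% and 50.1% of all listed rows did so, and since every listed row had passed the authors' own test, nothing is read from separation. Of the 14, 8 are annotated as pseudogenes, 3 as long noncoding RNAs and 3 as protein coding.

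The KRAB rows among these neighbours moved in both directions. *AC164117.1* (*Gm19428*) fell from 215 ± 73.3 to 87.5 ± 18.1 normalized counts (SD, n = 3), a log2 fold change of -1.38 (SE 0.26, edgeR adjusted P = 0.000172). *AC154506.4* (*Gm10323*) fell from 409 ± 60.3 to 214 ± 53.5, with -1.03 (SE 0.18, edgeR adjusted P = 0.00011). Its call sat at the threshold and was lost without control replicate 1 (-0.97), control replicate 6 (-0.996) or GKO replicate 3 (-0.86), and with DESeq2 size factors (-0.94). *Zfp640* was at 369 ± 24.7 and 226 ± 65.5 with a log2 fold change of -0.81, and *Zfp595* at 93.1 ± 25.3 and 161 ± 9.10 with 0.69. Neither was past the fold threshold. *Zfp455* had 0, 0 and 0 reads in control and 10, 31 and 14 in GKO oocytes, at least 6.57-fold higher against the floor of 3 reads per library. It too was below the filter.

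Of the rows without a KRAB domain, *AC192616.8* (*Gm21930*) fell by 1.96 (SE 0.52) on the log2 scale and *AC186674.2* (*Vmn2r-ps100*, a vomeronasal receptor pseudogene) fell by 1.48 (SE 0.37). The first call was lost without control replicate 6 (edgeR adjusted P = 0.0165), GKO replicate 3 (0.0151) or GKO replicate 5 (0.0107). In these fits the log2 fold change of *AC192616.8* stayed past the fold threshold, at -1.56, -1.62 and -1.92. The long noncoding row *AC163660.1* (*Gm48412*) had 4, 4 and 4 reads in control and 36, 31 and 13 in GKO oocytes, and it rose by 2.69 (SE 0.53, edgeR adjusted P = 0.000266). *AC124569.3* (*Vmn2r-ps106*) was at 415 ± 46.5 and 849.6 ± 21.4 normalized counts, with a log2 fold change of 0.94 that passed the threshold without control replicate 1 (1.04) and with DESeq2 size factors (1.03). *AC144733.1* (*Gm38428*), with 2, 0 and 0 reads in control and 8, 18 and 10 in GKO oocytes, was below the filter. The tested neighbours thus lay between -1.96 and 2.69 on the log2 scale, far from the values of the pair. This range leaves out *AC192333.3* and *Gm26715*, which were low in every GKO library but below the filter.

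**Figure D4:**
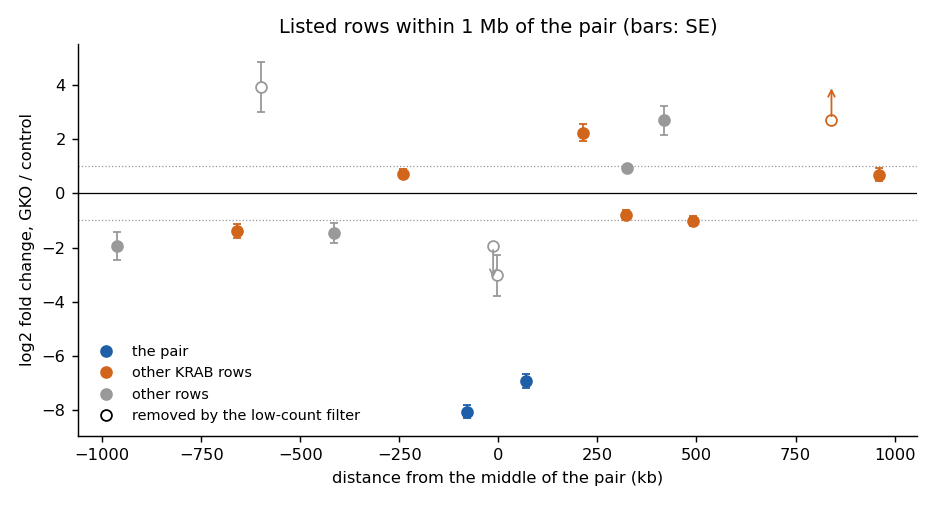
Log2 fold change with SE (3 GKO against 3 control libraries) of the 16 listed rows by distance in kb from the middle of the pair. Open symbols are rows below the low-count filter, fitted without it, except that the 2 rows with arrows have a group without reads and are drawn at their bound against the floor; dotted lines mark a fold change of 2.

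The promoter sequence of *2410141K09Rik* belongs to a family of copies in this cluster. With at least 80% identity over at least 200 bases, 31 copies lay on chromosome 13 between 65348533 and 66862385, and 41 in the whole genome. The promoter of *2410141K09Rik* and the copy upstream of *AC167192.3* were each other's closest relatives among the 31. The next best partner was 95.7% identical for the first and 96.7% for the second. Among all 465 pairs of copies, 12 pairs were more alike, and the median pair was 93.0% identical.

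Listed rows at other copies on the same strand were not near zero in GKO oocytes. *Zfp640* starts at a copy 93.7% identical to the promoter of *2410141K09Rik*, with 61.1% of its control level in GKO oocytes. *AC164297.1* starts 9.25 kb from the upstream end of its copy, also 93.7% identical, and was at 507% of control. On the same measure *Gm10324* starts 6.33 kb from a copy 93.6% identical and was at 176% of control, and *AC154506.4* starts 7.51 kb from one 89.5% identical and was at 52.3%. *AC124569.3* starts 10.2 kb from the upstream end of the copy at *Zfp640* and was at 205% of control. The 2 noncoding rows of the stretch started on the opposite strand at copies 86.0% (*AC192333.3*) and 93.3% (*Gm26715*) identical. Both were below the low-count filter, and they were at 0% and 12.4% of control. Rows were assigned to a copy within 15 kb downstream on its strand or within 500 bases on the other strand, limits set after the positions were seen. In all 9 listed rows met them, and 23 of the 31 copies were not the nearest copy to a listed row.

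**Figure D5:**
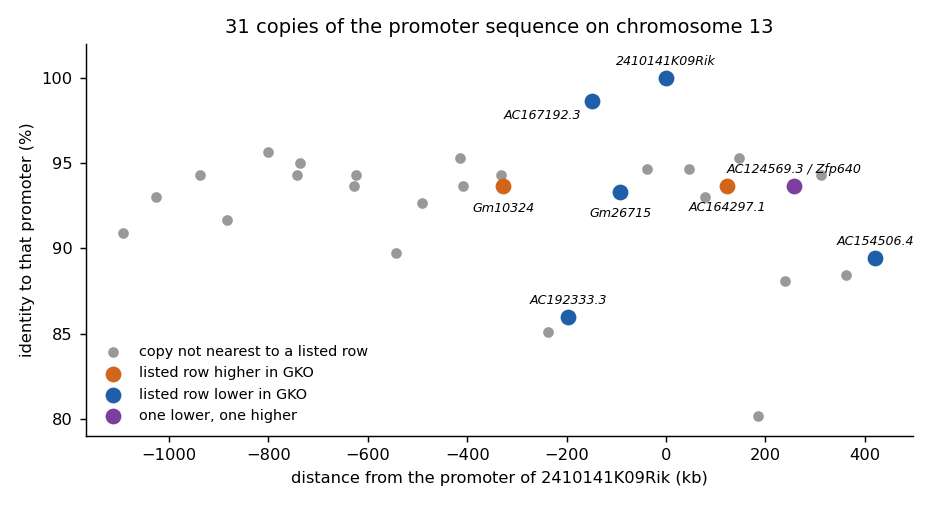
Identity in percent to the promoter of *2410141K09Rik* for 31 copies on chromosome 13, by distance from that promoter in kb, coloured by the sign of the log2 fold change of the listed rows at each copy. The copy upstream of *AC167192.3* at 98.7% has the highest identity, and copies at 93.6% to 93.7% have rows that were lower and rows that were higher in GKO oocytes.

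On the whole of chromosome 13, 12 listed rows had a RefSeq coding sequence with at least 2 C2H2 fingers. Of these, 7 lie within 1 Mb of the pair, with *2410141K09Rik* itself counted among them, and are described above. The other 5 were all tested. *Zkscan4* was called higher, as were 18.7% of tested rows over the table, with a log2 fold change of 1.07 (SE 0.24, edgeR adjusted P = 0.000637). The 4 others, *Gli3* (0.81), *6720489N17Rik* (-0.37), *Zfp58* (-0.61) and *Zfp131* (0.72), were not past the fold threshold. Among all listed rows, 67 had KRAB as deposited domain, the pair included. Of the 62 others that were tested, 13 were called lower (16.9% over the table) and 6 higher (18.7% over the table). Their median log2 fold change was -0.57, against -0.32 over all tested rows, and the difference from the table was not tested.

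Of 27 genes for H3K9 methylation and KRAB repression, 3 were listed. *Setdb1*, which methylates H3K9 at KRAB targets, was at 1525 ± 83.8 normalized counts in control and 1014 ± 42.5 in GKO oocytes (SD, n = 3), with a log2 fold change of -0.68. *Cbx1*, which encodes an HP1 protein that binds methylated H3K9, was at 1727 ± 249 and 1129 ± 25.2, with -0.70. Neither was past the fold threshold. *Kdm3a*, an H3K9 demethylase, rose from 67.7 ± 6.78 to 146 ± 17.6, just past the fold threshold with 1.02 (SE 0.22, edgeR adjusted P = 0.000607).

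Markers of oocytes and of cumulus and granulosa cells were looked up among the listed rows. Since only rows past the authors' own test are listed, the number of markers listed does not show which cells were present. Of 20 oocyte markers 7 were listed, with summed reads of 49338 to 61691 in the control libraries and 57276 to 60916 in the GKO libraries. Of these, *Zp3* was called lower (log2 fold change -1.05, with 16.9% called lower over the table), and the other 6 were not past the fold threshold. Among them *Zp1*, *Zp2* and *Tle6* had log2 fold changes of -0.86, -0.40 and -0.34, and *Mos*, *Nlrp5* and *Padi6* had 0.51, 0.42 and 0.48. Of 20 cumulus and granulosa markers 2 were listed, *Kitl*, the ligand that granulosa cells present to oocytes, and *Ptgs2*, a prostaglandin synthase of cumulus cells, with summed reads of 335 to 374 and 247 to 332. *Kitl* was at 333 ± 24.8 normalized counts in control and 229 ± 37.1 in GKO oocytes (log2 fold change -0.63), not past the fold threshold. *Ptgs2* rose from 9.70 ± 3.82 to 81.8 ± 21.7 normalized counts (log2 fold change 2.98). The part of other cells in the fall of the pair was not tested. In such bulk libraries fewer cells expressing a gene and less RNA per cell cannot be told apart.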

How the data were processed

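RNA libraries of 3 control and 3 *Ehmt2* GKO oocyte samples were analysed, grouped by the sample labels. The 11 RRBS samples were not analysed here. The authors deposited whole-number read counts per gene, without normalization. Submitters' processing notes list HISAT2, DESeq2 and FastQC and the build GRCm38 (mm10). The counting program and its strand setting are not given in the sources used here. The authors' own fold changes, P and adjusted P values stand beside the counts and were not used as results. The table lists only rows with their adjusted P below 0.05, so all P values here are descriptive and the depth over all genes is not known. Reads on listed rows ranged from 4060653 to 4258350 per library.

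Rows were tested with edgeR 4.0.16 (R 4.3.3): the filterByExpr filter at 10 reads, scaling by TMM, prior count 0.125, the quasi-likelihood F-test and Benjamini-Hochberg adjustment over 2516 rows. The test was tested on simulated data. A row was called at more than 2-fold and adjusted P under 0.01. Normalized counts were divided by DESeq2 1.42.0 size factors. Alternatives were other normalizations, DESeq2, limma voom 3.58.1, other filters, thresholds and windows, and leaving out each library. Sequences were compared with blastn 2.17.0 and Biopython 1.88 on the RefSeq GRCm38.p6 genome. GENCODE vM21 supplied exons, and 2613 of 2615 identifiers matched it. Fingers (C, 2 to 4 residues, C, 12 residues, H, 3 to 5 residues, H) were counted in translated RefSeq coding sequences of the 91 of 124 listed chromosome 13 rows that had one, matched by symbol.

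Named genes were the pair, listed rows within 1 Mb, the 5 rows nearest in pattern to each member, the 3 lowest in GKO oocytes after the pair, similar copies and fixed lists. The pair and the lists were chosen with earlier results of these data known.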

Additional observations from a re-analysis of the deposited data

How the results depend on the processing

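The direction of the pair was the same under every alternative run. With a prior count of 2 the log2 fold change was -7.52 for *AC167192.3* and -6.35 for *2410141K09Rik*, smaller because that prior adds more to the 3 to 5 reads of the GKO libraries. The other settings moved neither by more than its spread, and with 1 library left out the range was -8.24 to -7.90 and -7.03 to -6.79. Of the 10 neighbours tested within 1 Mb, 6 were called, against 897 of 2516 rows over the table. Testing the fold change against 2 left 2 of 10, against 260 of 2516. Dropping the low-count filter gave 10 of 14, against 1000 of 2615, since 4 more rows were then tested. All 4 had few reads and were listed only because they had passed the authors' own test. Leaving out 1 library gave 5 of 11 to 9 of 13 neighbours. Over the table it gave 791 to 916 of 2538 to 2561 tested rows.

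Single neighbours were followed through the alternatives after the data had been seen. *AC154506.4* lost its call under 7 of 14 and *AC192616.8* under 4, *AC164117.1* and *AC186674.2* under 1 each, and *AC124569.3* gained one under 4, and no direction reversed. No paired analysis was possible because replicate numbers differ between control and GKO libraries. With 3 to 5 reads per GKO library, what is left of either gene is known at best within its counting interval. This ran from 0.200% to 0.677% of control for *AC167192.3* and from 0.423% to 1.52% for *2410141K09Rik*. It covers counting error only, and neither the spread between libraries nor reads assigned from related sequence.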

Other observations

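Outside chromosome 13, the other 10 copies of the promoter sequence lay on chromosome 12, where a second set of related zinc finger genes sits. Their identity to the promoter of *2410141K09Rik* was at most 86.6%. One listed row there, *5730507C01Rik*, had a transcript 81.9% identical to *AC167192.3* over 75.0% of it, and it was at 2731 normalized counts in control and 1840.0 in GKO oocytes (log2 fold change -0.66, not past the fold threshold).

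In the opposite direction, 245 listed rows had a control mean under 20% of the GKO mean, and the longest run of such neighbours held 10 rows.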
